A study of Danio rerio with 6 samples.

Results

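The transcripts described here are those counted on the internal parts of zebrafish Gypsy elements. They were taken as the rows of the count tables whose identifier ends in :Gypsy:LTR and whose element name carries the internal part suffix -I, with a total of 10 or more counts over the 6 libraries. Of 231 such rows among 35218 features, 2 were left out by name and 24 were under the minimum, which left 205. The rule used no difference between conditions. Fertilized Tübingen zygotes were injected with 4.5 ng of either a translation-blocking morpholino oligonucleotide (MO) against the FiNZ zinc finger genes (FZNFs) or a scrambled 25N control MO. Embryos were collected 6 h after fertilization, at shield stage, and whole embryos were pooled for strand-specific poly(A) RNA-seq. All animals were otherwise wild type, and each condition had 3 libraries from 3 pairs of injections, of which pairs 1 and 2 were collected on 12 May and pair 3 on 17 May. An MO is not a mutant allele: it blocks translation for a time, it acts in all cells that inherit it, and the transcript counts do not measure how much FZNF protein was left.

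Gypsy elements are retrotransposons with long terminal repeats (LTRs). The terminal repeat holds the promoter and the polyadenylation signal, and the internal part between both repeats carries gag, which encodes the particle proteins, and pol, which encodes protease, reverse transcriptase, ribonuclease H and integrase. Recombination between the repeats leaves solo LTRs in the genome, so that a read from a terminal repeat can come from many more kinds of locus than a read from an internal part. KRAB zinc finger proteins of tetrapods bind such elements and recruit repressors, and the FZNFs of cyprinid fishes were studied here as candidates for that role.

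The study also predicted DNA motifs for zebrafish zinc finger proteins and searched them in consensus TE sequences, and 3 sets of its matched sequences are printed to show which internal parts resemble each other at such sites. The matches are predictions from the protein code, and no binding was measured. The first set comes from the motif whose 28-base match occurred in the most internal parts, 20 in the rows held here. It shows 3 internal parts that were higher with the FZNF MO (Gypsy69-I_DR, Gypsy164B-I_DR and Gypsy-248_DR-I) beside 5 that were not called. These 8 were chosen by hand from the 20, with relatives picked after their values were seen. Calls among the rest of the 20 were not counted, so the display gives no rate of calls for elements with the match. Capitals mark the 16 bases that are identical in all 8 sequences.
Gypsy69-I_DR: ggagGgaGAcGAaTGGAAaACcGCaTTc
Gypsy164B-I_DR: gcagGggGAcGAaTGGAAgACcGCcTTt
Gypsy-248_DR-I: agcaGgaGAtGAgTGGAAaACcGCcTTc
Gypsy164-I_DR: gcagGggGAtGAaTGGAAgACcGCcTTt
Gypsy-129_DR-I: acgaGgaGAtGAgTGGAAgACtGCtTTc
Gypsy64-I_DR: agagGggGAtGAgTGGAAgACcGCcTTt
Gypsy96-I_DR: agagGtgGAtGAgTGGAAgACcGCcTTt
Gypsy-165-I_DR: gcaaGgaGAtGAaTGGAAgACtGCtTTt

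The second set shows 58-base matches of another motif in Gypsy101-I_DR and in 3 relatives. Gypsy101-I_DR was the internal part with the steepest rise among those with ample counts. In the rows held here, 7 internal parts, Gypsy101-I_DR included, had a match at least 60% identical to its own. The 3 relatives shown were chosen from these by hand after their values were seen, and calls among the rest were not counted. Capitals mark the 45 bases shared by all 4 sequences. Counted against Gypsy101-I_DR, 52 bases were identical in Gypsy108-I_Dr, 49 in Gypsy-168-I_DR and 46 in Gypsy-168B_DR-I.
Gypsy101-I_DR: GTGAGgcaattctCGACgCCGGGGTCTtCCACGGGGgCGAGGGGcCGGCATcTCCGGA
Gypsy108-I_Dr: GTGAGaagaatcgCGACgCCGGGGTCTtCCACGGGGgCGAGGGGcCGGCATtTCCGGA
Gypsy-168-I_DR: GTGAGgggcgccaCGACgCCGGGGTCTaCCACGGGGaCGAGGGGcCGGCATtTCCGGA
Gypsy-168B_DR-I: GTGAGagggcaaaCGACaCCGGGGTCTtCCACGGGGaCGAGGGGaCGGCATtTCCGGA
A 58-base match was also held for the called internal part with the steepest fall. Its motif and its likeness to the others were not compared, and it is printed in lower case throughout.
Gypsy-130_DR-I: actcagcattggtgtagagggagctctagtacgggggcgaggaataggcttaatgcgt

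The third set shows 22-base matches in Gypsy97-I_DR and in 3 elements of one named lineage. In the rows held here, 11 internal parts had a 22-base match of that motif. The 4 shown were chosen by hand, and calls among the rest were not counted. Capitals mark the 21 bases that all 4 share, and the match of Gypsy97-I_DR is identical to that of Gypsy-28-I_DR.
Gypsy97-I_DR: ACGAGACGCGGCGGGGGGGGgA
Gypsy-28-I_DR: ACGAGACGCGGCGGGGGGGGgA
Gypsy-28B-I_DR: ACGAGACGCGGCGGGGGGGGaA
Gypsy-28C_DR-I: ACGAGACGCGGCGGGGGGGGaA

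The libraries held between 16306069 and 20567549 counts. All 12 shield stage markers checked were detected at a mean of 1 CPM or more (CPM, the normalised count of a row scaled to library size by TMM), among them the mesoderm gene tbxta and the enveloping layer keratin krt4. A single one of the 12 was called, the ventral homeobox gene vent (log2 fold change 0.74, SE 0.13, edgeR adjusted p = 0.00837), where 3.27% of all features were called higher. The markers vox and eve1 had 0.01 (SE 0.11) and 0.12 (SE 0.11) on the log2 scale, and sox17 had -0.52 (SE 0.20, edgeR adjusted p = 0.155). The median over the 12 was 0.13. The part of vent in the results below was not tested. Differences are given as the FZNF MO against the scrambled MO. A difference counted as called when it moved by 0.32 or more on the log2 scale in either direction and its Benjamini-Hochberg adjusted p, over all 17804 features tested, was under 0.05 in edgeR's quasi-likelihood fit with the injection pair as a block.

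A larger share of the counts fell on Gypsy internal parts after injection of the FZNF MO. Together they took 0.174%, 0.208% and 0.210% of the library in FZNF MO replicates 1, 2 and 3. In the controls they took 0.114%, 0.147% and 0.151%. Every FZNF MO library stood above every scrambled MO library. The share was 0.197% ± 0.0201 (SD, n = 3) against 0.137% ± 0.0204 (SD, n = 3), and the ratio within pairs was 1.53, 1.42 and 1.39. The terminal repeats of Gypsy elements (200 rows with 10 or more counts) did not show this separation. They took 0.117%, 0.165% and 0.224% with the FZNF MO and 0.126%, 0.164% and 0.170% with the scrambled MO, with ratios of 0.928, 1.01 and 1.32 within pairs. These shares lean on abundant rows. Gypsy50-LTR_DR alone stood at 83.0, 238 and 415 CPM with the FZNF MO and at 154, 249 and 269 CPM with the scrambled MO. In such bulk samples, more cells that transcribe an element and more RNA per cell cannot be told apart. Whether the counted reads came from transcripts of the elements themselves was not tested.

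**Figure D1:**
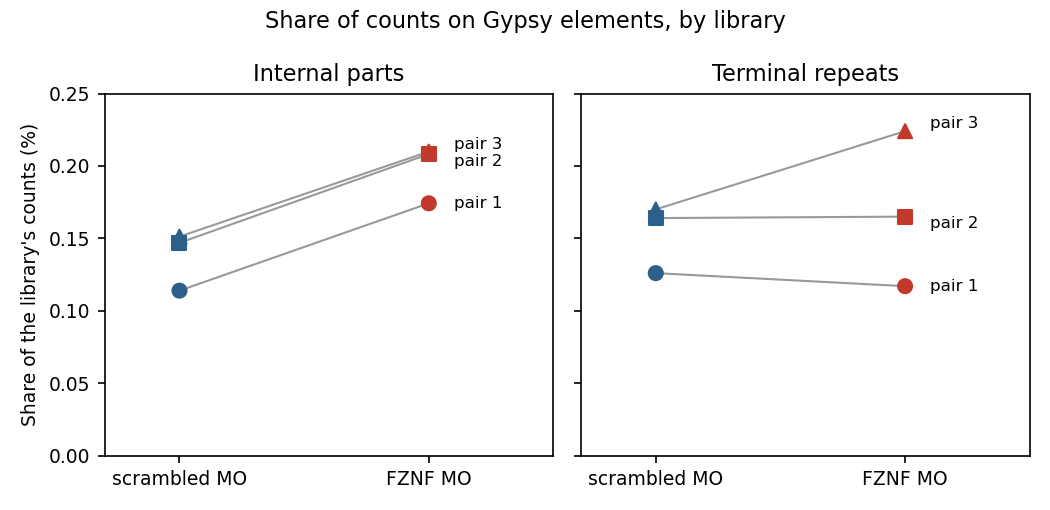
Share of each library's counts, in percent, on the 205 Gypsy internal parts (left) and on 200 Gypsy terminal repeats (right), with a line joining the scrambled MO and FZNF MO libraries of 1 injection pair. On the left all 3 lines rise, to 0.174% to 0.210%, while on the right pair 1 falls, pair 2 is nearly level and pair 3 rises.

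The shift was spread over many elements. Over all 205 internal parts the median log2 fold change was 0.51, against 0.009 over all 22984 features with a total of 10 or more counts, 0.052 over 2250 TE families and 0.15 over the terminal repeats. The lower and upper quartiles of the internal parts were -0.03 and 1.17, and those of all features were -0.35 and 0.43. The median stayed at 0.51 when the 3 internal parts with no count in one condition were set to a floor of 3 counts in that condition. This could not have moved it. Each of them held 10 or more counts in the other condition and so stayed on its side of the median. Within pairs 1, 2 and 3 the median log2 ratio was 0.52, 0.50 and 0.39 for the internal parts and 0.03, 0.04 and 0.38 for the terminal repeats. The medians of both kinds of row were alike in pair 3, the pair of the later collection day, and apart in pairs 1 and 2.

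Direction was also shared across pairs. In all, 82 internal parts (40%) had the higher value with the FZNF MO in each of the 3 pairs, where 18.9% of all features were, and 15 (7.32%) were lower in 3 of 3, where 18.6% of all features were. In 45 (22%) every FZNF MO library lay above every scrambled MO library, against 7.88% of all features, and in 8 (3.90%) every one lay below, against 7.44%. Of the terminal repeats, 22% were higher in 3 of 3 pairs and 7.0% were separated upward.

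The internal parts differed widely in level, and the median was positive among the rare and the abundant ones. Levels are not per length here, since a count also grows with the length and copy number of an element. The 36 internal parts with 10 CPM or more in the scrambled MO libraries had a median log2 fold change of 0.43, against -0.028 for 8369 features of that level. The 77 with 1 to under 10 CPM had a median of 0.37, against -0.022 for 7579 features. The 92 under 1 CPM had a median of 0.86, but features of that level as a whole also had a raised median, of 0.306 over 7036. The level was taken from the controls, which also enter the fold change, so a control value low by sampling puts a row in this class and raises its fold change.

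**Figure D2:**
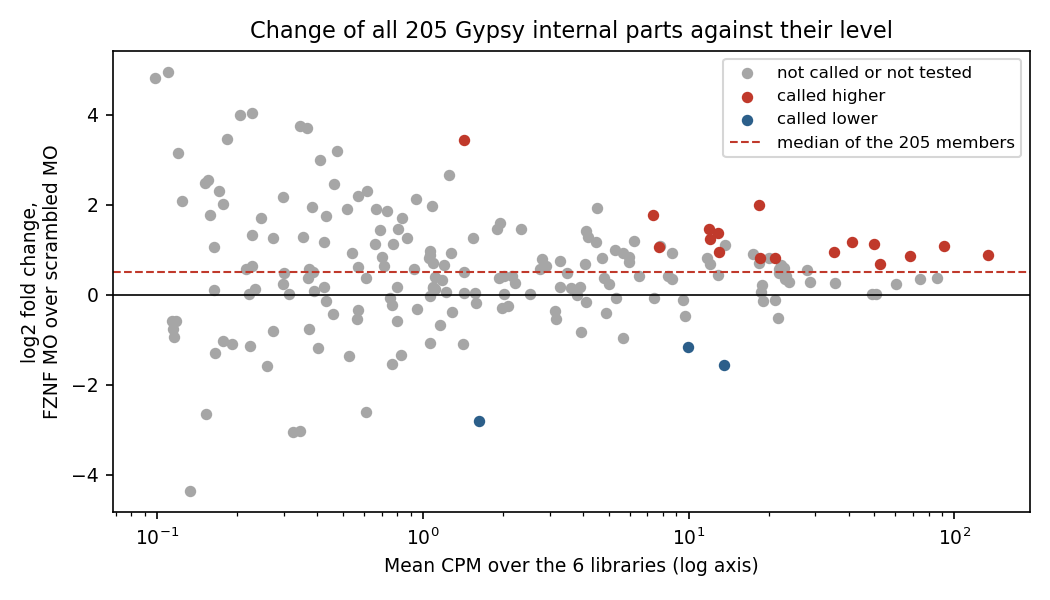
log2 fold change of each of the 205 internal parts against its mean CPM over the 6 libraries on a log axis, with 17 called higher, 3 called lower and the median of 0.51 as a dashed line. Of the 205 points 152 lie above 0, and the spread widens to the left, where counts are few.

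Of the 205 internal parts, 142 had enough counts for the test and 63 did not. With the FZNF MO, 17 were called higher, or 12.0% of those tested, where 3.27% of all features and 2.98% of TE families were called higher. A further 3 were called lower, or 2.11%, where 2.18% of all features and 0.719% of TE families were. At an unadjusted p under 0.05 the numbers were 46 higher and 7 lower, but the share of all features at that level was not counted. The 17 rises had a median log2 fold change of 1.07 and ran from 0.66 to 3.43. All 17 were higher in each pair, and in 14 of them the conditions did not overlap. The call rests on the same libraries and favours both, so neither is separate support. When every feature with 10 or more counts in total was tested, which takes in all 205 internal parts, 31 (15.1%) were called higher and 3 (1.46%) lower, against 4.36% and 3.11% of all features. The calls depended on the pairing. Without the block edgeR called 3 higher and 0 lower, and without pair 2 it called 3 higher and 0 lower. DESeq2 with the block called 25 higher and 3 lower. The shares of all features called in these last fits were not counted.

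**Figure D3:**
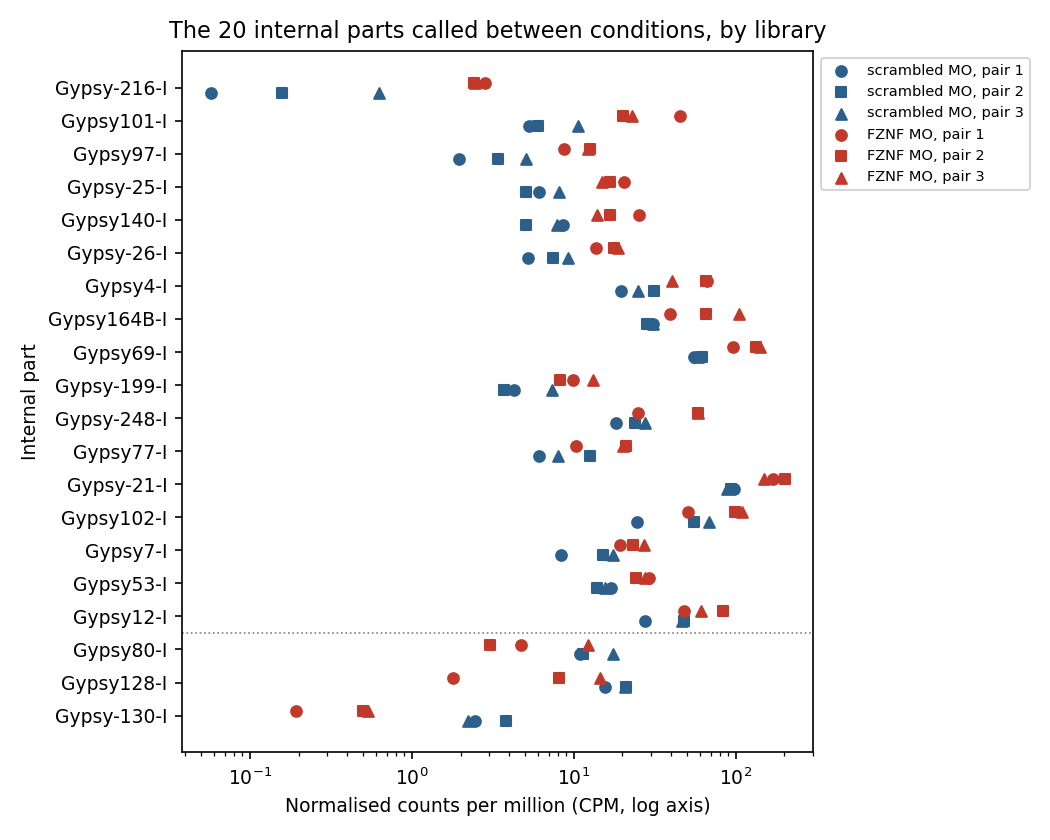
CPM on a log axis in each of the 6 libraries for the 20 internal parts called, ordered by log2 fold change, with red for the FZNF MO, blue for the scrambled MO and 1 symbol shape per injection pair. Above the dotted line red points lie right of the blue point of the same shape in all 17 rows, and below it they lie left in all 3.

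Gypsy101-I_DR rose most among the internal parts with a mean count of at least 50. It stood at 45.4, 20.2 and 22.9 CPM in FZNF MO replicates 1, 2 and 3 and at 5.28, 5.99 and 10.7 CPM in scrambled MO replicates 1, 2 and 3. The lowest FZNF MO library was thus well above the highest control, and pair 1 had by far the widest gap. The log2 fold change was 1.97 (SE 0.32, edgeR adjusted p = 0.00424) and fell to 1.42 without pair 1. Its terminal repeat rose alike, from 2.01, 3.05 and 3.04 CPM to 18.1, 5.75 and 9.25 CPM (log2 fold change 1.88, SE 0.40, edgeR adjusted p = 0.0182). The 3 relatives printed with it were not called. Gypsy-168-I_DR stood at 12.3, 8.25 and 9.73 CPM against 1.32, 8.35 and 7.05 CPM (log2 fold change 1.07, SE 0.49, edgeR adjusted p = 0.257), so that nearly all of its difference came from pair 1. Gypsy108-I_Dr had 0.46 (SE 0.21) and Gypsy-168B_DR-I had -0.12 (SE 0.28) on the log2 scale, with edgeR adjusted p = 0.255 and 0.857. Differences in change between these 4 were not tested.

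Gypsy97-I_DR was the next by size among those called with that mean count. It stood at 8.68, 12.7 and 12.2 CPM with the FZNF MO and at 1.95, 3.41 and 5.10 CPM with the scrambled MO, with no overlap (log2 fold change 1.75, SE 0.29, edgeR adjusted p = 0.00446). Gypsy-28-I_DR, whose printed match has the same letters, stood at 4.78, 6.93 and 3.54 CPM against 2.52, 3.26 and 3.50 CPM (log2 fold change 0.68, SE 0.36, edgeR adjusted p = 0.32). Its conditions separate only by the small gap between 3.54 and 3.50 CPM in pair 3. Gypsy-28C_DR-I stood at 2.51, 10.7 and 8.05 CPM against 1.26, 4.99 and 4.36 CPM (log2 fold change 0.99, SE 0.30, edgeR adjusted p = 0.0791), higher in each pair with overlap between conditions. Gypsy-28B-I_DR was too rare for the test, with 9, 9 and 3 counts against 0, 0 and 1.

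Among the elements with the 28-base match, Gypsy69-I_DR had the smallest adjusted p of any internal part. It stood at 96.8, 133 and 142 CPM with the FZNF MO and at 55.2, 62.0 and 58.3 CPM with the scrambled MO (log2 fold change 1.07, SE 0.13, edgeR adjusted p = 0.000538). The controls lie close together and all FZNF MO libraries lie above them. It was still called without the block (edgeR adjusted p = 0.0219) and without pair 2 (edgeR adjusted p = 0.0330). Gypsy164B-I_DR stood at 39.3, 65.2 and 105 CPM against 30.7, 28.2 and 31.1 CPM (log2 fold change 1.11, SE 0.22, edgeR adjusted p = 0.0123). Its controls were level while its FZNF MO libraries ranged widely, with the smallest rise in pair 1 and the largest in pair 3. Gypsy-248_DR-I also had its smallest difference in pair 1, at 24.8, 58.7 and 58.4 CPM against 18.2, 23.9 and 27.7 CPM (log2 fold change 0.95, SE 0.18, edgeR adjusted p = 0.0113), with FZNF MO replicate 1 below scrambled MO replicate 3.

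The other elements printed with that match did not pass the test. Gypsy-129_DR-I stood at 4.54, 6.25 and 7.08 CPM against 2.58, 2.52 and 2.23 CPM, separated between conditions but just short of the threshold (log2 fold change 1.26, SE 0.34, edgeR adjusted p = 0.0557). Gypsy64-I_DR had 0.13 (SE 0.85) and Gypsy96-I_DR had 0.03 (SE 0.61) on the log2 scale, with edgeR adjusted p = 0.956 and 0.983. Gypsy-165-I_DR went the other way, at 1.69, 2.62 and 4.56 CPM against 4.47, 5.36 and 4.87 CPM (log2 fold change -0.83, SE 0.37, edgeR adjusted p = 0.246). Gypsy164-I_DR, whose match differs from that of Gypsy164B-I_DR in few letters, was too rare to test, at 0.482, 1.06 and 0.420 CPM against 0.229, 0.946 and 0.115 CPM. As the reads were counted with multimapping allowed, reads can be shared among elements with near-identical stretches, and the split between such relatives is uncertain.

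Several called rises were of moderate level. A rise in every pair was part of the rule that named these elements, so it is no separate result. None of them was called without the block or without pair 2. Gypsy-25-I_DR stood at 20.4, 16.8 and 15 CPM against 6.14, 5.10 and 8.14 CPM (log2 fold change 1.44, SE 0.25, edgeR adjusted p = 0.00583). Gypsy140-I_DR stood at 25.3, 16.7 and 14.0 CPM against 8.61, 5.10 and 7.91 CPM (log2 fold change 1.37, SE 0.24, edgeR adjusted p = 0.00673). Both had FZNF MO replicate 1 as the highest library and no overlap. Gypsy-26-I_DR stood at 13.8, 17.7 and 18.8 CPM against 5.22, 7.46 and 9.17 CPM, with like log2 ratios of 1.38, 1.23 and 1.03 within pairs (log2 fold change 1.22, SE 0.22, edgeR adjusted p = 0.00744). Gypsy4-I_DR stood at 66.5, 65.4 and 40.2 CPM against 19.6, 31.2 and 24.8 CPM (log2 fold change 1.17, SE 0.19, edgeR adjusted p = 0.00459). Its terminal repeat rose as well, from 8.83, 8.14 and 8.65 CPM to 16.5, 19.1 and 16.2 CPM (log2 fold change 1.01, SE 0.21, edgeR adjusted p = 0.0174).

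Gypsy-199_DR-I and Gypsy77-I_DR were called higher too. The first stood at 9.89, 8.18 and 13.1 CPM against 4.30, 3.73 and 7.39 CPM (log2 fold change 1.05, SE 0.26, edgeR adjusted p = 0.0347), while its terminal repeat had 0.02 (SE 0.47) on the log2 scale. In the test for a difference between parts given below, Gypsy-199_DR-I was not called (difference 1.03, SE 0.65, edgeR adjusted p = 0.529). The second stood at 10.3, 21.1 and 20.1 CPM against 6.08, 12.7 and 8.02 CPM (log2 fold change 0.94, SE 0.22, edgeR adjusted p = 0.0299), with overlap because FZNF MO replicate 1 lies below scrambled MO replicate 2. Gypsy7-I_DR and Gypsy53-I_DR completed the list, with log2 fold changes of 0.81 (SE 0.20) and 0.80 (SE 0.17) and edgeR adjusted p = 0.0344 and 0.0198. In Gypsy53-I_DR the ratios were nearly equal in all pairs, at 0.78, 0.80 and 0.82 on the log2 scale.

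The rarest called rise was also the steepest. Gypsy-216_DR-I had 2.85, 2.44 and 2.46 CPM with the FZNF MO and 0.0574, 0.158 and 0.630 CPM with the scrambled MO (log2 fold change 3.43, SE 0.78, edgeR adjusted p = 0.0254). The FZNF MO libraries lie close together, while the controls hold 1, 3 and 11 counts and differ widely from each other. It was no longer called without pair 1 or without pair 2. Gypsy92-I_DR, at 0.627, 0.625 and 0.60 CPM against 0.229, 0 and 0 CPM, and Gypsy-176_DR-I, at 1.79, 1.0 and 1.62 CPM against 0.803, 0.0525 and 0.401 CPM, were separated between conditions too. They did not pass the test (edgeR adjusted p = 0.195 and 0.173). Gypsy-216_DR-I, Gypsy92-I_DR and Gypsy-176_DR-I had enough counts to be tested mainly through their FZNF MO libraries, where they are high. That favours a separation between conditions in such rare rows, so the separation is no separate support.

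The elements with the most counts differed among themselves. In the scrambled MO libraries 10 internal parts held 41.6% of the counts on all 205. Of these 10, 4 were called higher and none lower by edgeR, where 3.27% of all features were called higher and 2.18% lower. The share called among features of like level was not counted, and a change is easier to call where counts are many. Gypsy-21-I_DR, first in level, stood at 171, 201 and 150 CPM with the FZNF MO and at 98.0, 94.1 and 89.0 CPM with the scrambled MO (log2 fold change 0.88, SE 0.12, edgeR adjusted p = 0.00102). Its controls spread by little and the conditions are far apart, and its terminal repeat was called as well (log2 fold change 0.63, SE 0.13, edgeR adjusted p = 0.0131). Gypsy102-I_DR stood at 50.7, 98.6 and 110 CPM against 24.5, 55.7 and 68.8 CPM (log2 fold change 0.85, SE 0.13, edgeR adjusted p = 0.00305). Both conditions start low in pair 1, so the libraries overlap between conditions although each pair shows the rise. Gypsy12-I_DR stood at 48.1, 83.5 and 60.8 CPM against 27.5, 47.9 and 46.5 CPM (log2 fold change 0.66, SE 0.14, edgeR adjusted p = 0.0199), with a narrow gap between FZNF MO replicate 1 and scrambled MO replicate 2.

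The other 6 of these 10 were Gypsy117-I_DR, Gypsy-171_DR-I, Gypsy132-I_DR, Gypsy94-I_DR, Gypsy13-I_DR and Gypsy138-I_DR. Gypsy117-I_DR stood at 82.5, 104 and 104 CPM against 63.9, 86.9 and 74.4 CPM (log2 fold change 0.37, SE 0.12, edgeR adjusted p = 0.0955) and was higher in each pair. Gypsy-171_DR-I varied widely between injection pairs, at 38.1, 132 and 74.9 CPM against 24.1, 88.9 and 87.1 CPM (log2 fold change 0.34, SE 0.17, edgeR adjusted p = 0.297). Pair 1 was low in both conditions and pair 3 went against the other pairs. Gypsy132-I_DR and Gypsy138-I_DR had 0.23 (SE 0.13) and 0.25 (SE 0.16) on the log2 scale, with edgeR adjusted p = 0.347 and 0.421. Gypsy13-I_DR stood at 57.2, 47.7 and 42.7 CPM against 54.6, 43.0 and 48.5 CPM, and Gypsy94-I_DR at 39.1, 49.2 and 64.7 CPM against 39.5, 59.9 and 52.9 CPM. In these last 2 the libraries of both conditions intermingle, and the fitted changes were 0.01 (SE 0.14) for Gypsy13-I_DR and under 0.005 in size for Gypsy94-I_DR (SE 0.15).

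**Figure D4:**
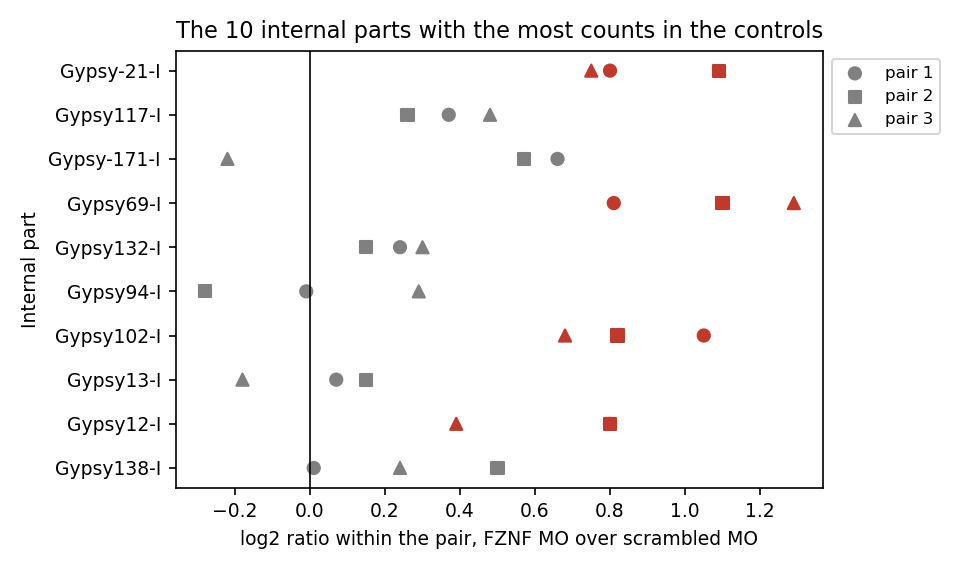
log2 ratio of the FZNF MO library over the scrambled MO library within each injection pair for the 10 internal parts with the most counts in the controls, with red for the 4 called higher and grey for the rest. The red points lie between 0.39 and 1.29, while Gypsy-171_DR-I, Gypsy13-I_DR and Gypsy94-I_DR have points on both sides of 0.

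A few abundant elements carried much of the gain in counts. Summed over all internal parts, the mean level was 1987 CPM with the FZNF MO and 1372 CPM with the scrambled MO, a difference of 614 CPM net of the falls. The 5 with the largest gain in CPM (Gypsy-21-I_DR, Gypsy69-I_DR, Gypsy164B-I_DR, Gypsy102-I_DR and Gypsy4-I_DR) accounted for 254 CPM, or 41.4% of it. All of them were among those called higher, where 3.27% of all features were. They were picked by their gain in the same libraries and are abundant, which favours a call, so the calls are no separate support.

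The 3 internal parts called lower were Gypsy-130_DR-I, Gypsy128-I_DR and Gypsy80-I_DR. Gypsy128-I_DR stood at 1.79, 8.06 and 14.5 CPM with the FZNF MO and at 15.7, 21.0 and 20.8 CPM with the scrambled MO (log2 fold change -1.57, SE 0.38, edgeR adjusted p = 0.0347). The conditions do not overlap, and the fall was far larger in pair 1 than in pair 3, at -3.06 and -0.51 on the log2 scale. Gypsy80-I_DR stood at 4.73, 3.06 and 12.2 CPM against 10.9, 11.4 and 17.6 CPM (log2 fold change -1.18, SE 0.29, edgeR adjusted p = 0.0344), with overlap because pair 3 was higher in both conditions. Gypsy-130_DR-I, the rarest, stood at 0.193, 0.50 and 0.540 CPM against 2.47, 3.84 and 2.23 CPM (log2 fold change -2.82, SE 0.61, edgeR adjusted p = 0.0210). Gypsy149-I_DR had a like shape at a lower level, at 0.289, 0 and 0.300 CPM against 1.26, 0.893 and 0.917 CPM, and was not called (edgeR adjusted p = 0.189). Gypsy-130_DR-I and Gypsy149-I_DR had enough counts to be tested mainly through their scrambled MO libraries, where they are high. That too favours a separation between conditions.

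A comparison of both parts of an element asks whether the internal part and the terminal repeats changed together. Both were tested in 94 Gypsy elements, and in 70 of them the log2 fold change of the internal part was the larger. The median was 0.47 for the internal parts and 0.13 for the terminal repeats of these 94, with a median difference of 0.27. Over 61 other LTR elements the median difference was 0.21, so that a positive difference was not confined to Gypsy. Of the 17 called rises, 13 had a tested terminal repeat. Of these 13 repeats 12 had a positive log2 fold change, and the median of the 13 was 0.56. In the fit used for medians over all features, 50.7% of features were positive, but that is another fit over a wider set of rows. The positive share among the tested Gypsy terminal repeats was not counted. The median of 0.13 for the repeats of the 94 elements was itself positive. Called higher were 3 of the 13, those of Gypsy101-I_DR, Gypsy4-I_DR and Gypsy-21-I_DR. Of all 144 Gypsy terminal repeats tested, 9 (6.25%) were called higher, these 3 included. The 13 were picked by a rise of the internal part in the same libraries. How much of the agreement between parts comes from that choice was not tested.

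**Figure D5:**
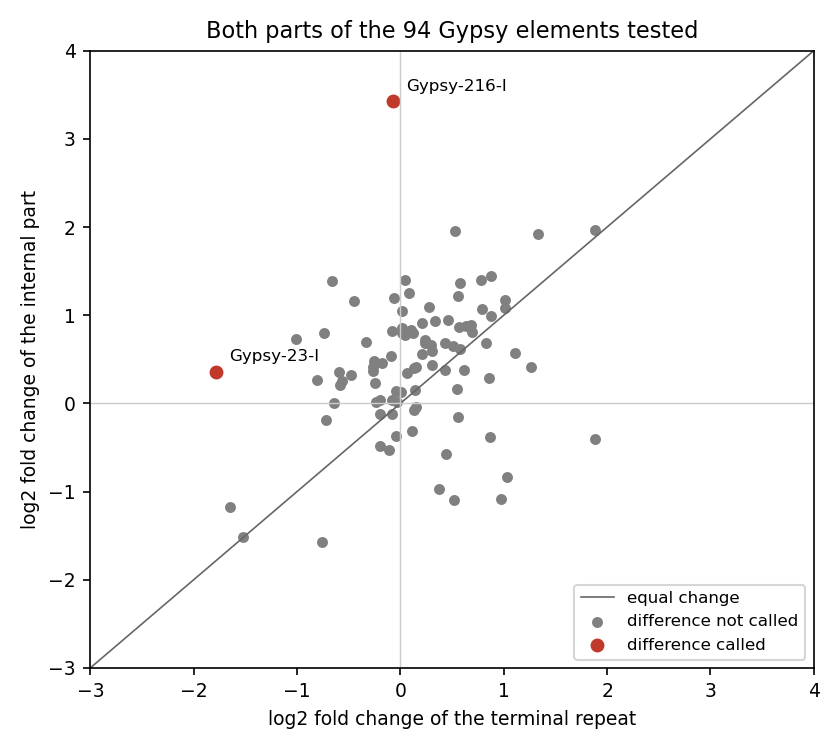
log2 fold change of the internal part against that of the terminal repeat for the 94 Gypsy elements with both parts tested, with a line of equal change. Of the 94 points 70 lie above the line, and the 2 in red are those whose parts differed in the test.

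A fit with part, condition and their interaction was made over 157 LTR elements. In it 2 of the 94 Gypsy elements passed the test for a difference between parts, both with the internal part higher. Of all 157 LTR elements 4 (2.55%) were called in that direction, these 2 included. The rate among the Gypsy elements was thus no higher than that of all LTR elements. At an unadjusted p under 0.05 there were 7 with the internal part higher and 3 with it lower. The share of all LTR elements at that level was not counted. Gypsy-23-I_DR was one of the called elements, and its difference arose in the terminal repeat. The repeat stood at 6.56, 17.2 and 27.0 CPM with the FZNF MO and at 40.8, 57.1 and 56.2 CPM with the scrambled MO (log2 fold change -1.78, SE 0.25, edgeR adjusted p = 0.00150), a clear fall with no overlap. The internal part was rare, at 0.772, 0.750 and 0.540 CPM against 0.746, 0.420 and 0.458 CPM (log2 fold change 0.36, SE 0.82), and the difference was 2.21 (edgeR adjusted p = 0.0143). In Gypsy-216_DR-I it arose in the internal part. Its terminal repeat stood at 0.627, 1.31 and 1.92 CPM against 0.918, 1.79 and 1.15 CPM, with overlap (log2 fold change -0.07, SE 0.63), and the difference was 3.49 (edgeR adjusted p = 0.0353). Neither was called without the block, without pair 1 or without pair 2. A stricter count filter left both out for their low counts, and among those it kept no Gypsy element was called.

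The machinery that restrains such elements was read from a list of 32 genes for repressive chromatin, DNA methylation and the piRNA pathway. A symbol was matched and tested for 21 of them. Of these, 2 were called higher and none lower by edgeR, where 3.27% of all features were higher and 2.18% lower. At an unadjusted p under 0.05 there were 4 higher and 3 lower, and DESeq2 called 3 higher and 0 lower. The shares of all features by these 2 measures were not counted. The called genes were trim33, a TIF1-family corepressor and ubiquitin ligase (204 against 133 CPM, log2 fold change 0.61, SE 0.12, edgeR adjusted p = 0.0123), and morc3b, a MORC-family ATPase (75.7 against 41.3 CPM, log2 fold change 0.89, SE 0.21, edgeR adjusted p = 0.0275). The H3K9 methyltransferase gene setdb1a had 0.21 (SE 0.15) and the maintenance DNA methyltransferase gene dnmt1 had 0.10 (SE 0.17) on the log2 scale, with edgeR adjusted p = 0.474 and 0.796. Of the other MORC genes listed, morc2 had 0.25 (SE 0.12) and morc3a had -0.40 (SE 0.19), with edgeR adjusted p = 0.271 and 0.289. The listed genes atf7ip, cbx5 and uhrf1 had -0.37 (SE 0.12), -0.31 (SE 0.12) and 0.39 (SE 0.13), with edgeR adjusted p = 0.109, 0.154 and 0.117. The piRNA pathway genes tdrd1 and tdrd9 went opposite ways, at -0.84 (SE 0.35) and 0.51 (SE 0.15), with edgeR adjusted p = 0.205 and 0.0729. The median over the 21 was 0.06.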

How the data were processed

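RNA was measured in 6 libraries of pooled whole embryos, 3 per MO. Per the labels, the authors used FastQC 0.11.9 and STAR 2.7.5a on GRCz11, and their Methods add TEcount with multimapping reads and DESeq2. The strand setting of TEcount and the annotation release were not given in the sources used here. What the authors deposited were raw counts for each feature, not rescaled here before the test. Multimapping reads are spread over families, so relatives can exchange counts.

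Libraries held 16306069 to 20567549 counts. Features passing filterByExpr by condition were scaled by TMM and tested in edgeR 4.0.16 (R 4.3.3), quasi-likelihood, with injection pair and condition as terms and Benjamini-Hochberg adjustment. The Methods describe paired injections; deviations from group means correlated within pairs (r = 0.451, 0.327 and 0.244) and ranged from -0.315 to 0.0583 between pairs. Over the internal parts alone the correlations within pairs were 0.236, 0.375 and 0.0807. An adjusted p measures how the difference varies over the 3 pairs of pools, not over embryos. Standard errors came from the fold change and the F statistic. Medians over all 205 rows used a fit of the features with a total of 10 or more counts. The part test fitted internal and terminal counts of 1 element together. No 2 libraries of a condition agreed within sampling noise.

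Named elements were the called ones with a mean count of 50 or more and 1 direction in 3 of 3 pairs (12 higher and 8 lower at most), the 10 with the most counts in the controls, those called in the part test (up to 8), and the 6 largest changes among those with a predicted match. The others named were chosen after their values were seen: Gypsy7-I_DR, Gypsy53-I_DR and the relatives in the printed sets. The members, lists and tests were chosen with earlier results of these data known. Sequences are from the study's table of predicted matches in consensus TEs, of which a shortened copy was read. Symbols were matched without regard to letter case. Alternatives were no block, collection day as block, RLE factors, TMM factors from Ensembl genes, DESeq2 1.42.0, other count filters, no fold threshold, summed parts, and each pair or library left out. Tests were tried on simulated data.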

Additional observations from a re-analysis of the deposited data

Results flagged for a closer look

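The change of the internal part differed from that of its terminal repeat in Gypsy-23-I_DR by 2.21 and in Gypsy-216_DR-I by 3.49 on the log2 scale, both in a test of the difference itself (edgeR adjusted p = 0.0143 and 0.0353). They were 2 of the 94 Gypsy elements in that test, where 4 of all 157 LTR elements (2.55%) were called in that direction. The internal part of Gypsy-23-I_DR and both parts of Gypsy-216_DR-I hold few counts.

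In 34 of the 205 internal parts the pair collected on the later day had the opposite sign of both pairs of the earlier day. Of those named by the rule, 3 did so, all among the 10 with the most counts in the controls. The log2 ratio in that pair was -0.22 in Gypsy-171_DR-I, -0.18 in Gypsy13-I_DR and 0.29 in Gypsy94-I_DR. The difference between days was not tested, since the later day has 1 pair. Such signs were not counted over all features, so the 34 have no background to be read against.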

How the results depend on the processing

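The number of internal parts called depended on the injection pair as a block. Against 17 higher and 3 lower, the fit with no replicate block called 3 and 0 and the fit with the collection day as the block 2 and 0. The replicate block changed no direction among the named internal parts except that of Gypsy94-I_DR, whose value lies at 0. The 3 called higher with no replicate block were Gypsy-21-I_DR, Gypsy69-I_DR and Gypsy101-I_DR. Leaving out 1 pair gave 3 to 24 higher and 0 to 3 lower, with the low ends without pair 2, where 2 of the 17 were still called. Leaving out 1 library with no replicate block gave 0 to 6 higher and 0 lower in each case. The total count filter called 31 higher. RLE factors, TMM factors from Ensembl genes, DESeq2, the stricter filter, no fold threshold and summed parts gave 17, 18, 25, 18, 17 and 20 higher. The 17 were all called by DESeq2 too. The median over all internal parts was 0.45 with no replicate block and 0.48 to 0.60 with 1 pair left out. Over Ensembl gene counts alone the gain in share was 0.0704 percentage points in place of 0.0601, and it was 0.0595 to 0.0608 with 1 pair left out. The 2 elements called in the part test fell to 0 with no replicate block, and numbered 0 to 3 with 1 pair left out. The stricter filter also gave 0, but it left out both of these elements and so did not retest them. The cause was not tested. Of these alternatives, only the total count filter has the share of all features called beside it.

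Directions turned in 3 named internal parts, none of them called. Gypsy94-I_DR had 0.01 with no replicate block, RLE factors, DESeq2 and the total count filter, 0.03 with TMM factors from Ensembl genes and 0.00 with the stricter filter, -0.14 to 0.15 with a pair left out, and 0.17, 0.04, 0.15 and 0.05 with single libraries left out. Gypsy13-I_DR ranged from -0.05 to 0.12 with a pair left out and was -0.11 or -0.06 without FZNF MO replicate 1 or scrambled MO replicate 2. Gypsy-171_DR-I was -0.23 or -0.10 without FZNF MO replicate 2 or scrambled MO replicate 1. As rows of their own, the 63 with too few counts were tested only under the total count filter. The 18 called internal parts that the rule named kept their direction under each alternative that tested them (16 of the 18 under the stricter filter). Gypsy7-I_DR and Gypsy53-I_DR were not followed in this way.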
